A study of Mus musculus with 2 samples.

Results

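The tissue macrophages described here were 229 of 10891 kept cells from mouse limb muscle, 95 in a library from DMSO-treated mice and 134 in a library from MVC-treated mice. They were chosen by measured values in the same libraries. Kept cells showed 500 genes or more, and mitochondrial genes gave no more than 10% of their UMIs (unique molecular identifiers, 1 per captured RNA molecule). A kept cell was a member when it held a UMI of at least 4 of the 8 genes C1qa, C1qb, C1qc, Csf1r, Mrc1, Adgre1, Ms4a7 and Cd68, and fewer than 2 UMIs of each of Cdh5, Pdgfra and Cd79a. Aged C57BL/6 mice had received Maraviroc (MVC) or its vehicle DMSO by intraperitoneal injection, and live mononuclear cells were sorted from digested limb muscle after red blood cells had been lysed. With 1 droplet library (10x Genomics) per treatment, the variation among mice is unknown and no p-value is given. All intervals are 95% intervals that cover counting error only. How many mice went into a library is not given in the labels.

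Macrophages of resting skeletal muscle lie in the connective tissue around fibres and vessels, where they clear dead cells and debris, handle iron from haemoglobin, and present antigen. Those with a resident programme carry receptors such as Lyve1, Folr2, Cd163 and Timd4, whereas cells that came more recently from blood monocytes carry the chemokine receptor Ccr2 and more MHC class II.

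Members had a median of 10178 UMIs in the DMSO library (range 1891 to 33453) and of 8746 in the MVC library (range 724 to 29638), and 1152832 and 1220595 UMIs in all. Median genes were 2792 vs. 2654 and median mitochondrial shares 1.71% vs. 2.17%. The 2 libraries shared 8 barcodes among kept cells, none of them a member's. Free RNA was not removed. Of the members, 1 DMSO and 2 MVC cells were called as doublets. A further 12 DMSO and 13 MVC cells had enough of the 8 genes but were left out for Cdh5, Pdgfra or Cd79a.

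The label was checked against 15 fixed marker lists. The 12 tissue macrophage markers summed to 10021 CPM (UMIs per 1000000 UMIs of these cells) in DMSO members and 10074 CPM in MVC members, compared with 111 and 83.8 CPM in the other kept cells of each library. Since 8 of these markers chose the cells, this is a description. At least 2 of the markers stood at 2 or more UMIs in 94 of the 95 DMSO and 132 of the 134 MVC members. The 8 monocyte markers summed to 198 and 193 CPM in members, above the 175 and 163 CPM of the other cells. Ccr2 gave most of this, with 131 and 160 UMIs in 25 and 29 members, while Ly6c2 had 1 and 12 UMIs and Plac8 was seen in 3 and 4 members. Neutrophil markers summed to 120 and 119 CPM, compared with 1776 and 1313 CPM in the other cells. Retnlg, Cxcr2 and Stfa2l1 were at 0 UMIs in both libraries and S100a8 had 6 and 0 UMIs, whereas Csf3r (27 and 37 members) and Mmp9 (28 and 30 members) were higher in members than in the other cells, at 45.1 and 54.9 CPM (18.3 and 7.76 in the others) and at 66.8 and 62.3 CPM (7.08 and 4.23). Of the B cell list, Ighm had 61 and 145 UMIs in 38 and 65 members and Ebf1 22 and 116 UMIs in 9 and 18 members, while Ms4a1 and Pax5 had 0 and 1 UMIs each. Cells with Cd79a were left out by the rule, so its level is no check. The high satellite cell sum, 1430 vs. 790 CPM, came from Sdc4, at 1428 and 774 CPM, while Pax7, Myf5 and Chodl were at 0 in DMSO members and Calcr was at 0 in both.

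**Figure D1:**
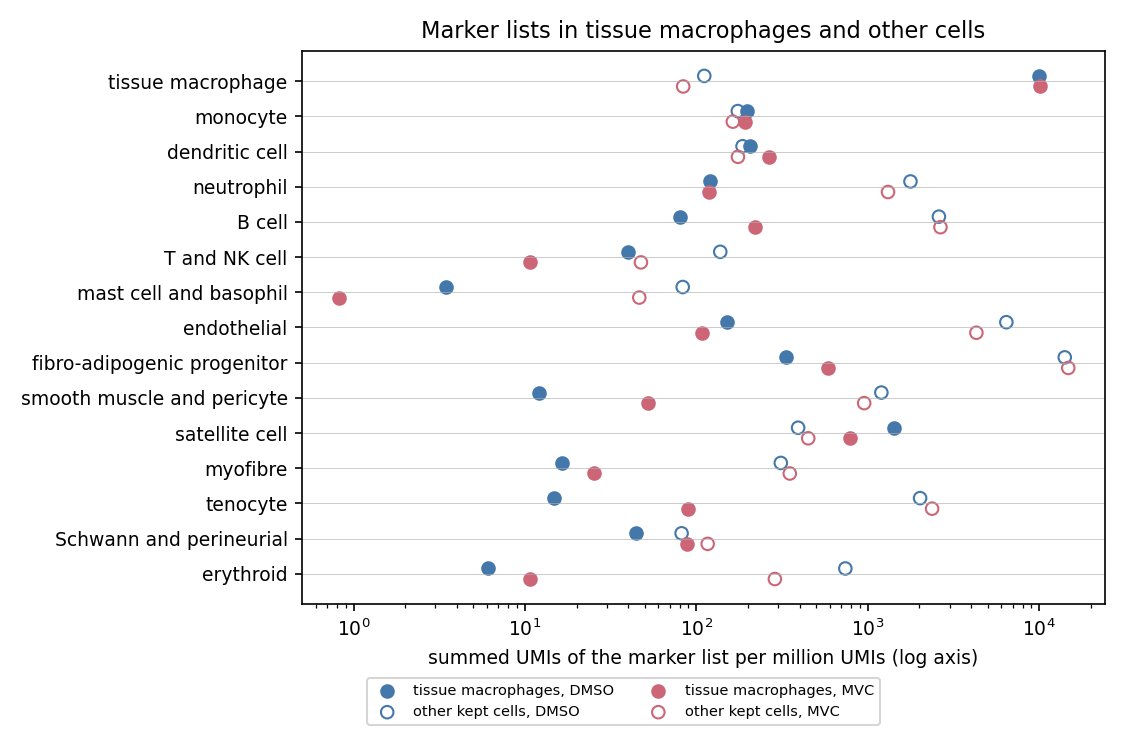
Summed CPM of each marker list, on a log axis, in tissue macrophages (filled) and in all other kept cells (open) of the DMSO (blue) and MVC (red) libraries. The macrophage list lies at 10021 and 10074 CPM in members and at 111 and 83.8 CPM in the other cells, and the satellite cell sum of the members is Sdc4.

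In 18 DMSO and 30 MVC members, 2 or more markers of another list stood at 2 or more UMIs. The dendritic cell list accounted for 3 DMSO and 16 MVC members. Its genes Cd209a (29 and 48 members with a UMI) and Siglech (25 and 56 members) were widely seen, while Flt3, Xcr1 and Clec9a had at most 3 UMIs in either library. Fibro-adipogenic progenitor markers summed to 332 CPM in DMSO and 584 CPM in MVC members, led by Dcn and Gsn, and 4 and 5 members carried 2 of them. Endothelial markers were at 152 vs. 108 CPM and the B cell list at 80.7 vs. 221 CPM. Calls that end when these 48 members are left out are named as such, and the part of other cells in the remaining results was not tested.

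At the threshold of the rule, the cells with exactly 4 of the 8 genes (6 DMSO, 12 MVC) had 2210 and 1448 CPM of the rule genes and median depths of 13357 and 3259 UMIs. Cells with 3 of the genes, just outside (9 DMSO, 24 MVC), had 660 and 1191 CPM and median depths of 12257 and 10191 UMIs. Members with all 8 genes (45 DMSO, 51 MVC) had 8170 and 8774 CPM. The number of rule genes and their CPM come from the same counts, so these values are no check of the threshold.

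The rule genes differed by less than 1.5-fold between the libraries, and since they chose the members this is a description. C1qa, C1qb and C1qc, which encode the chains of complement C1q, were at 1255, 1087 and 1220 CPM in DMSO and 1636, 1313 and 1173 CPM in MVC members. Csf1r, the receptor that macrophages need to survive, was at 457 vs. 568 CPM. Mrc1, the mannose receptor, was at 1473 vs. 1699 CPM, and Adgre1 (F4/80) at 395 vs. 353 CPM. Cd68, a lysosomal glycoprotein, was at 397 vs. 272 CPM, and Ms4a7 at 342 vs. 291 CPM. Ratios of MVC to DMSO ran from 0.68 (0.59 to 0.79) for Cd68 to 1.30 (1.22 to 1.40) for C1qa, and 0 of the 8 genes were past 1.5-fold.

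Outside the rule, the genes highest in members over the other kept cells were Pf4 (platelet factor 4, which resident macrophages also make), F13a1 (the A chain of coagulation factor XIII) and Ccl4. Pf4 was at 2306 CPM in DMSO and 1692 CPM in MVC members, compared with 12.4 and 8.08 CPM in the other cells. F13a1 was at 1801 and 1685 CPM compared with 9.60 and 7.35 CPM. They were followed by the lysozyme gene Lyz2, the haptoglobin-haemoglobin receptor Cd163, the anaphylatoxin receptors C3ar1 and C5ar1, the RNA-binding protein gene Rbm47, the ATP-gated channel P2rx7, Ccl9, Ccl6, the protease gene Ctsc, the lipopolysaccharide co-receptor Cd14, the costimulatory gene Cd86 and the inhibitory receptor Lilrb4a. Lilrb4a shares 39.1% of its 31-base words with Lilr4b and Lyz2 32.8% with Lyz1, so reads of these pairs may have been split. Cells were selected on these counts, and the ratios are given with no test.

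Members formed 1.75% (95 of 5437, 1.42 to 2.13) of the kept DMSO cells and 2.46% (134 of 5454, 2.06 to 2.90) of the kept MVC cells. The difference was 0.710 percentage points (0.170 to 1.26). After every cell was thinned to 2000 UMIs, which left out 447 DMSO and 981 MVC cells, the shares were 1.74% and 2.53%. Without the members that carried markers of another list, the difference was 0.491 points (0.00911 to 0.978). The share depends on the number of all other cells in the sort, and the mice behind each library cannot be told apart from the treatment.

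Members differed among themselves in their resident programme in both libraries. Each member was thinned to 2000 UMIs, which left 94 DMSO and 126 MVC cells, and the resident-programme subset was defined as the cells with a UMI of at least 2 of Lyve1, Folr2, Cd163 and Timd4. It is a range cut from these values rather than a type. The subset held 31 of 94 DMSO members (33.0%, 23.6 to 43.4) and 55 of 126 MVC members (43.7%, 34.8 to 52.8), a difference of 10.7 points (-2.36 to 23.0). Without thinning the shares were 53.7% and 64.9%. Thinned to 4000 UMIs, the shares were 40.9% and 58.3%, and the difference was 17.4 points (3.48 to 30.3).

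Of the other 20 tested genes of the resident list, 17 were at least 1.5-fold higher inside the subset in both libraries, beside 605 of all 8455 genes tested. Cd209b, a lectin of resident macrophages, was at 103 vs. 12.5 CPM in DMSO and 171 vs. 17.2 CPM in MVC. Maf, a transcription factor of resident macrophages, was at 1451 vs. 398 CPM and 1657 vs. 535 CPM. Gas6, a bridge between dying cells and their phagocyte, was at 465 vs. 115 CPM and 528 vs. 178 CPM. Vsig4, a complement receptor, and Selenop, a selenium carrier, lay on the same side.

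Many genes of monocyte-derived cells and of inflammation were lower inside the subset. Of the 14 monocyte and monocyte-derived genes 8 were at least 1.5-fold lower inside in both libraries and 0 higher. S100a4 was not among them, at 706 CPM inside and 693 CPM outside in DMSO and at 449 and 415 CPM in MVC. The interleukin gene Il1b had 5 UMIs inside the subset in either library, compared with 1059 outside it in DMSO and 589 in MVC. Fn1 (fibronectin) had 1 and 2 UMIs inside, compared with 456 and 211 outside, and Thbs1 (thrombospondin) 3 and 4 compared with 1083 and 363. Few members held these genes, and Thbs1 stood at 2 or more UMIs in 14 DMSO and 7 MVC members. Ccr2 was at 11.5 CPM inside and 158 CPM outside in DMSO and at 28.5 and 191 CPM in MVC. The MHC class II gene H2-Ab1 was at 227 vs. 1283 CPM in DMSO and 623 vs. 1760 CPM in MVC. Of the 28 inflammatory genes 13, and of the 19 chemokines 11, were at least 1.5-fold lower inside in both libraries, compared with 512 of 8455 genes. The immediate early gene Jun was higher inside, at 1965 vs. 418 CPM in DMSO and 2605 vs. 1001 CPM in MVC. Of the 14 heat shock genes 3 were higher inside in both libraries. Median depths inside and outside were 9661 and 10455 UMIs in DMSO and 8306 and 10355 in MVC.

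**Figure D2:**
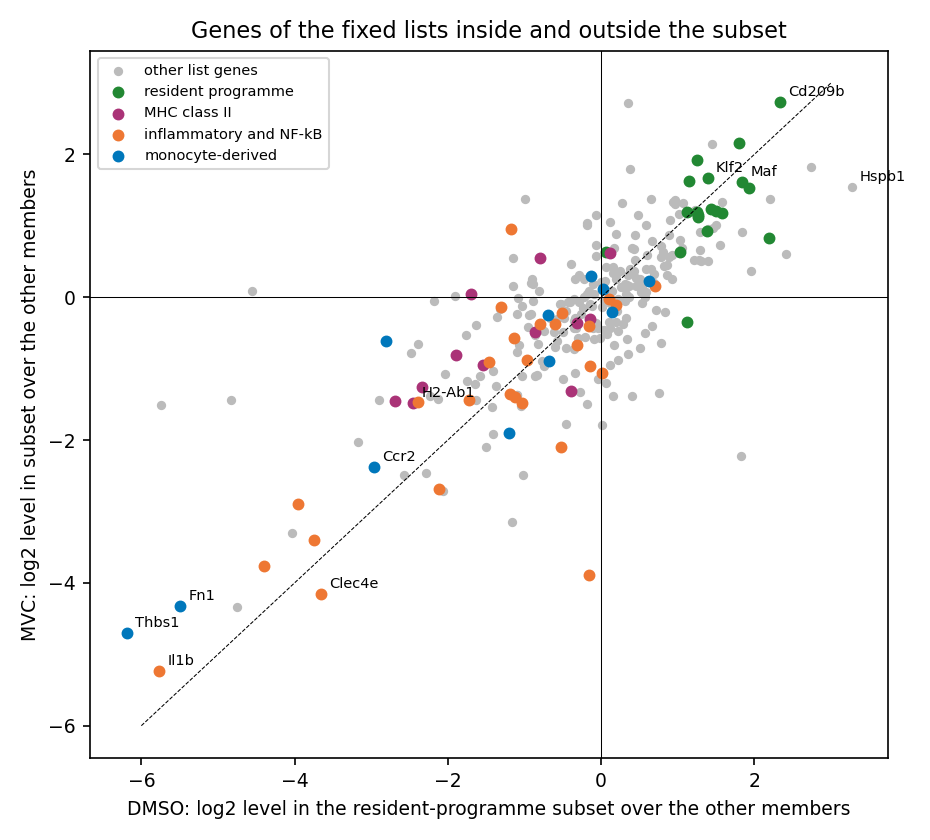
Log2 ratio of the level inside the resident-programme subset over the level in the remaining members, in DMSO (x axis) and MVC (y axis), for genes of the fixed lists with at least 50 UMIs and without the 4 genes that defined the subset; the dashed line marks equal ratios. Resident-programme genes such as Cd209b and Maf lie at the upper right, and Il1b, Thbs1 and Fn1 at the lower left, in both libraries.

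A UMI of Ccr2 was found in 11 of 94 DMSO and 14 of 126 MVC members after thinning (11.7% vs. 11.1%, a difference of -0.591 points with an interval of -9.75 to 7.78) and in 26.3% vs. 21.6% without it. The 4 MHC class II genes H2-Aa, H2-Ab1, H2-Eb1 and Cd74 took a median of 0.241% of a cell's UMIs in DMSO (range 0 to 4.15%) and of 0.372% in MVC (range 0 to 6.05%). They were at 0 in 10 and 16 members. At least 1% of UMIs came from these genes in 22 DMSO and 40 MVC members.

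The chemokine gene Cxcl2, whose product attracts neutrophils, varied widely between single members. It ranged from 0 to 70079 CPM per cell in DMSO, with a median of 1572 CPM, and from 0 to 90080 CPM in MVC, with a median of 71.2 CPM. It was at 1000 CPM or more in 51 DMSO members (53.7%) and 45 MVC members (33.6%), a value chosen after seeing the data. In both libraries, cells at or above it held more of the inflammatory list (20 of 28 genes at least 1.5-fold higher in both libraries, beside 307 of 8455 genes tested) and less of the resident list (20 of 24 genes lower in both, beside 809 of 8455). Of the 13 MHC class II genes 0 were higher and 2 lower there in both libraries, with medians of -0.04 and -0.03. Cxcl3 was at 1181 vs. 10.5 CPM in DMSO and 692 vs. 1.32 CPM in MVC. Ptgs2, the inducible prostaglandin synthase, was at 496 vs. 46.4 CPM and 304 vs. 31.7 CPM, and Il10, an anti-inflammatory cytokine, at 301 vs. 67.5 CPM and 421 vs. 14.5 CPM. Mertk, a receptor for dying cells, was at 73.7 vs. 255 CPM and 25.9 vs. 193 CPM. Cells at or above the value were deeper, with medians of 12423 vs. 9186 UMIs in DMSO and 9766 vs. 8306 in MVC.

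**Figure D3:**
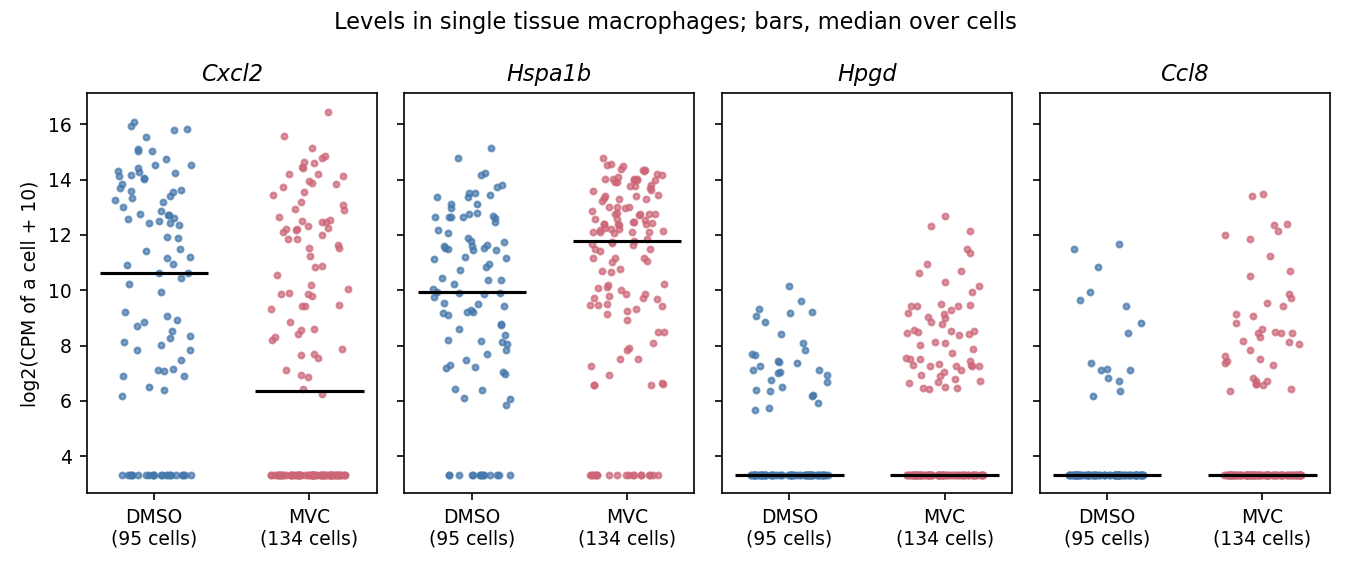
Level of Cxcl2, Hspa1b, Hpgd and Ccl8 in each tissue macrophage as log2(CPM of the cell + 10), with 1 point per cell and the median over cells as a bar. The median of Cxcl2 is lower and that of Hspa1b higher in the MVC library, while Hpgd and Ccl8 are at 0 in most cells of either library.

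Members of the libraries were then compared gene by gene. Levels are CPM of the summed member UMIs, and a gene is called higher or lower when its log2 ratio of MVC over DMSO, with 10 CPM added to both levels, is past 1.5-fold. Of 8455 genes with at least 20 member UMIs, 875 (10.3%) were higher and 422 (4.99%) lower in the MVC library, and the median log2 ratio was 0.06. These shares over all genes, 10.3% and 4.99%, are the background of the list counts below. Among the other kept cells, whose summed counts are far deeper, 143 genes were higher and 148 lower of 19039. Some ratios rested on few cells. Of 5553 genes with at least 50 UMIs, 368 had over 50% of a library's UMIs in 3 cells. These made up 117 of the 498 higher and 66 of the 264 lower genes at that depth, and were set aside for the genes named next.

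Among genes not held by few cells, the highest ratio belonged to Hpgd, which encodes the enzyme that inactivates prostaglandins. It had 61 UMIs in 31 DMSO members and 308 UMIs in 58 MVC members, or 52.9 vs. 252 CPM, a ratio of 4.77 (3.61 to 6.38). After thinning, 17.0% of DMSO and 21.4% of MVC members had a Hpgd UMI (32.6% and 43.3% without thinning), a difference of 4.41 points (-6.44 to 14.5) that did not exceed counting error. Thinned endothelial cells had it in 0 of 1816 and 0 of 1388 cells, which allows shares of up to 0.165% and 0.216%, and progenitors in 7.42% and 4.40%. Inside the resident-programme subset it was at 63.1 vs. 550 CPM, and outside it at 47.4 vs. 75.5 CPM. Hpgd was at 13.6 vs. 12.6 CPM in the other cells. Next came Rnf180, a ubiquitin ligase gene, with 62.5 vs. 234 CPM (ratio 3.75, 2.89 to 4.93) in 26 and 59 members. Egr1, an immediate early transcription factor, was at 278 vs. 913 CPM (3.28, 2.90 to 3.73). After thinning, 30.9% of DMSO and 38.1% of MVC members had an Egr1 UMI, a difference of 7.24 points (-5.52 to 19.4) that did not exceed counting error. Thinned endothelial cells had it in 62.9% and 65.8% and progenitors in 67.6% and 74.5%. The part of free RNA in the members' Egr1 was not tested. The other genes at this end were the actin-linked Palld, the long noncoding Mir99ahg, the metalloproteinase inhibitor Timp3, the Ras and Rap effector Rassf5, the phosphodiesterase gene Pde3b, Fam214a, Ehbp1, the co-chaperone Bag3 and Slamf9. Timp3 (8 and 50 UMIs) and Palld (10 and 60 UMIs) were at 936 and 114 CPM in the other DMSO cells, far above their member levels.

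Grik3, a kainate receptor subunit gene, was lowest, with 96 UMIs in 52 DMSO members and 19 UMIs in 18 MVC members (83.3 vs. 15.6 CPM, ratio 0.19, 0.11 to 0.31). In the other cells together it was at 20.2 vs. 20.7 CPM, but the share of cells with a UMI was lower in MVC in both other types looked at. Thinned shares were 10.6% vs. 0.794% of members (54.7% vs. 13.4% without thinning; difference -9.84 points, -17.7 to -3.90), 2.26% vs. 1.08% of endothelial cells and 3.95% vs. 1.24% of fibro-adipogenic progenitors. Ccl6 was at 1083 vs. 424 CPM (0.39, 0.35 to 0.43), Mdm2, the ligase that degrades p53, at 479 vs. 197 CPM (0.41, 0.35 to 0.48), Odc1, which makes polyamines, at 490 vs. 176 CPM (0.36, 0.31 to 0.42) and the lectin receptor gene Clec4d at 376 vs. 133 CPM (0.35, 0.29 to 0.42). Cdc42ep4, the sphingomyelin synthase gene Sgms2, Ankrd28 and Rsbn1 were also at this end. Rps27rt, Ftl1-ps1 and Wdr89 were lower too, but about as much lower in the other cells (ratios 0.28, 0.34 and 0.31). Rps27rt shares 91.6% of its 31-base words with Rps27 and Ftl1-ps1 63.5% with Ftl1, so these counts are uncertain.

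Of the chemokines that attract monocytes and T cells, Ccl3 was lower, at 963 vs. 488 CPM (ratio 0.51, 0.46 to 0.56). It was seen in 42.6% of thinned DMSO members and 22.2% of thinned MVC members, a difference of -20.3 points (-32.3 to -7.89), while thinned endothelial cells (at least 2 Cdh5 UMIs, median depths 4401 and 4335 UMIs) had it in 0.110% and in 0 of 1388 cells, the latter allowing a share of up to 0.216%. Without thinning the members' shares were 57.9% and 37.3%. Ccl4 was at 4043 vs. 2953 CPM (0.73, 0.70 to 0.76), in 60.6% and 46.0% of thinned members, and did not pass 1.5-fold. Ccl5 was at 182 vs. 147 CPM (0.81, 0.66 to 0.99), with 59.0% and 67.6% of its UMIs in 3 cells. In the other cells Ccl4 had a ratio of 1.42 and Ccl3 of 1.06.

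Among chemokine receptors, Cx3cr1, the fractalkine receptor, was at 28.6 vs. 135 CPM (4.72, 3.23 to 7.09), in 15 and 33 members, though 3 cells held 54.5% of its UMIs in either library. Thinned shares with a Cx3cr1 UMI were 6.38% and 15.1% of members (15.8% and 24.6% without thinning), a difference of 8.70 points (0.0913 to 16.7), compared with 7.16% and 6.77% of endothelial cells, so the DMSO share was at background. Ccr2 was at 114 vs. 131 CPM (1.15, 0.91 to 1.46) and Ccr1 at 154 vs. 151 CPM (0.98, 0.79 to 1.21). Ccrl2, which binds chemerin without signalling, was at 165 vs. 64.7 CPM (0.39, 0.30 to 0.51). Ccr7 was lower by its few UMIs, 29 and 16, which came from 1 and 2 cells, and its sign turned with the choice of members.

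Of the 19 chemokines tested, 4 were higher and 5 lower (21.1% and 26.3%), and the median was -0.29, compared with 0.04 for the same genes in the other cells. Lower were Cxcl3, Ccl6, Cxcl2, Ccl3 and Ccl7. Cxcl2 was at 9728 vs. 4744 CPM (0.49, 0.47 to 0.50) and Cxcl3 at 700 vs. 264 CPM (0.38, 0.33 to 0.43), but Cxcl3 was held by 21 and 16 members and its log2 ratio of -1.37 became -0.13 without the members that carried markers of another list. Ccl7 was at 1432 vs. 799 CPM (0.56, 0.51 to 0.60) and Ccl2 at 1812 vs. 1284 CPM (0.71, 0.66 to 0.76). Ccl8 was higher, with 122 CPM in DMSO and 459 CPM in MVC members (3.75, 3.11 to 4.54). Ccl2, Ccl7 and Ccl8 lie in 1 cluster on chromosome 11, between 82035571 and 82116799. The Ccl8 UMIs came from 16 DMSO and 40 MVC members, with 74.5% and 71.1% in 3 cells. Thinned shares with a Ccl8 UMI were 10.6% and 14.3% (16.8% and 29.9% without thinning), a difference of 3.65 points (-5.69 to 12.2), compared with 0.110% and 0.144% of endothelial cells. In the other cells Ccl8 was at 7.61 vs. 4.69 CPM. Ccl12, Cxcl9 and Cxcl14 were the other higher genes.

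**Figure D4:**
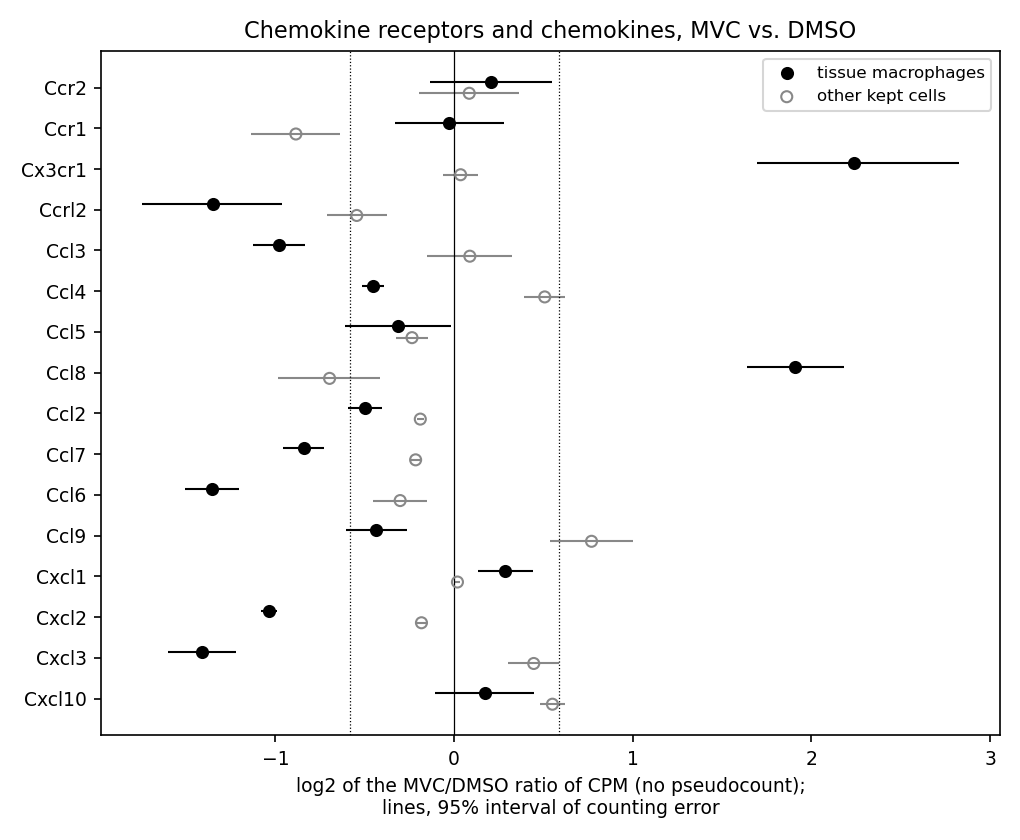
Log2 of the MVC/DMSO ratio of CPM, without a pseudocount, with its 95% interval of counting error for chemokine receptors and chemokines in tissue macrophages (filled) and in all other kept cells (open), with dotted lines at 1.5-fold. Cx3cr1 and Ccl8 lie to the right in tissue macrophages, and Ccl3, Ccl6, Ccl7, Cxcl2 and Cxcl3 to the left in tissue macrophages.

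The inflammatory list holds cytokines and the feedback genes of NF-kB. Of its 28 genes 2 were higher (7.14%) and 8 lower (28.6%), with a median of -0.24 (-0.16 in the other cells). Clec4e, a receptor for mycobacterial glycolipid, was at 421 vs. 129 CPM (0.31, 0.26 to 0.37) and Cd14 at 1557 vs. 824 CPM (0.53, 0.49 to 0.57). Il1b was at 927 vs. 487 CPM (0.53, 0.47 to 0.58) while the other cells had 40.7 vs. 63.9 CPM, and its log2 ratio of -0.91 became -0.30 without members that carried markers of another list. Sod2, the mitochondrial superoxide dismutase, was at 303 vs. 174.5 CPM. Tnfaip3 (A20), which restrains NF-kB, was at 168 vs. 327 CPM (1.94, 1.63 to 2.32). Nfkb1 was at 1132 vs. 972 CPM and Zfp36, which destabilises cytokine mRNAs, at 519 vs. 640 CPM. Among cells at or above 1000 CPM of Cxcl2, the median of the list was 0.14, and among cells below it -0.39.

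The sequence before the start site was read for these genes, since they were high in the same cells. The motif GGANTTTCC, a form of the site that NF-kB binds, was searched on both strands in the 250 bases before each RefSeq start in GRCm38.p6. It was found in 350 of 32851 promoters (1.07%) and in 10 of the 33 tested genes of the inflammatory and chemokine lists that had a promoter in the table. Among those at least 1.5-fold lower in the MVC library 3 of 11 held it, and among those higher 1 of 6. Cxcl1, near Cxcl2 and with the motif, was not lower in MVC members, with a log2 ratio of 0.28. The motif is a match of letters and no evidence of binding. The 32851 are promoters, whereas a listed gene counted once if any of its starts held the motif, so these shares are unlike measures. The inflammatory list holds feedback genes of NF-kB by its definition, so its share is no test. The 150 bases before the start are shown for the 3 lower genes that held the motif and for Ccrl2, with the motif in capitals. Cxcl2 is at chr5:90903749-90903898 (plus strand), Cxcl3 at chr5:90785951-90786100 (plus strand), Nlrp3, which encodes the inflammasome sensor, at chr11:59541419-59541568 (plus strand) and Ccrl2 at chr9:111057519-111057668 (minus strand).
Cxcl2: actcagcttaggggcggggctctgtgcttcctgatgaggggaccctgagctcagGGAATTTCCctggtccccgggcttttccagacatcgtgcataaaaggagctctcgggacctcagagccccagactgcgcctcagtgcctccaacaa
Cxcl3: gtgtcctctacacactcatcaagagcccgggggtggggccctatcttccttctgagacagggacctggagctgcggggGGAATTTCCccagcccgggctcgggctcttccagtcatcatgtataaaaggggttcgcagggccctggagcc
Nlrp3: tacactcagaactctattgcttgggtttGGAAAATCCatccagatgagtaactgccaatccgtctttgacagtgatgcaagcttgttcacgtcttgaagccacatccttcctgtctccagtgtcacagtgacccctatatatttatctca
Ccrl2: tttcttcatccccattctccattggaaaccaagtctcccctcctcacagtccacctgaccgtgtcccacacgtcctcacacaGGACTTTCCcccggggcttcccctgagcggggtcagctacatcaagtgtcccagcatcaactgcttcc

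Heat shock genes had the highest list median, 0.62, with 7 of 14 genes higher and 0 lower, compared with 1 of 14 and a median of 0.23 in the other cells. Hsph1, an Hsp110 chaperone, was at 838 vs. 1998 CPM (2.38, 2.21 to 2.57) and Bag3 at 279 vs. 752 CPM (2.69, 2.37 to 3.07). Hspa1b was at 3177 vs. 5554 CPM (1.75, 1.68 to 1.82) and Hspa1a at 2882 vs. 4953 CPM (1.72, 1.65 to 1.79). The latter pair shares 67.6% of its 31-base words and cannot be separated with certainty. Hspd1, the mitochondrial Hsp60, was at 407 vs. 764 CPM. Per cell, Hspa1b had a median of 983 CPM in DMSO (range 0 to 36674) and of 3474 CPM in MVC (range 0 to 28461). Without the members that carried markers of another list, the list median was 0.34, the log2 ratio of Hspa1b 0.40 instead of 0.80, that of Hspa1a 0.49 instead of 0.78 and that of Hspb1 0.39 instead of 1.05. In DMSO, 81.7% of the Hspb1 UMIs lay in 3 cells.

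The heat shock promoters were read in the same way. The motif TTCNNGAA or GAANNTTC, 2 facing repeats of the unit that heat shock factor binds, occurred in 12.8% of all 32851 promoters and in 8 of the 11 heat shock genes with a promoter in the table. Of the 7 genes at least 1.5-fold higher, 5 held it. The 12.8% is over promoters, whereas a listed gene counted once if any of its starts held the motif, so these shares are unlike measures. Hspe1, whose window is also shown, was not past 1.5-fold (log2 ratio 0.58). Windows of 150 bases are shown for the inducible Hspa1b at chr17:34959239-34959388 (minus strand), for Hsph1 at chr5:149636337-149636486 (minus strand) and for Hspe1, the partner of Hspd1, at chr1:55087998-55088147 (plus strand), where 3 overlapping copies form 1 run in capitals.
Hspa1b: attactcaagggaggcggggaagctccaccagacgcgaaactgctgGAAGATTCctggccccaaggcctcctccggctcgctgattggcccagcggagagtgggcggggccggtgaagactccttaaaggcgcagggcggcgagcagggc
Hsph1: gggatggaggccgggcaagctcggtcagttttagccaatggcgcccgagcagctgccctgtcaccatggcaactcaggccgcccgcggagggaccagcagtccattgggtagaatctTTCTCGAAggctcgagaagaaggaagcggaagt
Hspe1: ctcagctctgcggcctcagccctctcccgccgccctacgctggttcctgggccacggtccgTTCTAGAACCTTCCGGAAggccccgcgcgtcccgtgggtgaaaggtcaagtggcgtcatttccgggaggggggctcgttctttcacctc

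Immediate early genes were higher in 8 of 23 (34.8%) and lower in 2 (8.70%), with a median of 0.13. In the other cells the median was -0.18 and 0 of these genes passed the fold. Jun was at 885 vs. 1603 CPM (ratio 1.81), Atf3 at 573 vs. 936 CPM (1.64, 1.48 to 1.80) and Fos at 355 vs. 578 CPM (1.63, 1.44 to 1.85). Junb was at 624 vs. 957 CPM. The ratios of Atf3, Fos and Junb were under 1.5-fold without members that carried markers of another list. In cells at or above 1000 CPM of Cxcl2, Egr1 was at 88.4 CPM in DMSO and 1152 CPM in MVC, and in the remaining members at 551 and 768 CPM. Ppp1r15a, a gene of the stress response, was lower, at 500 vs. 306 CPM, though not past 1.5-fold without the 3 top cells of each library.

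Of the 13 MHC class II genes tested 1 was higher and 1 lower (7.69% each), with a median of 0.23. Markers of other cells that carry MHC class II moved with them: 2 or more dendritic cell markers stood at 2 or more UMIs in 3 DMSO and 16 MVC members, and the B cell list was at 80.7 vs. 221 CPM. Without the members that carried markers of another list the median was 0.24, the log2 ratio of H2-Aa 0.41 instead of 0.47 and that of Cd74 0.11 instead of 0.29. The part of these markers in the values inside the subset was not tested. H2-Aa was at 1445 vs. 2000 CPM (1.38, 1.30 to 1.47), H2-Eb1 at 1292 vs. 1513 CPM and the invariant chain Cd74 at 3108 vs. 3808 CPM (1.23, 1.17 to 1.28). The difference lay more in the resident-programme subset. There H2-Aa was at 370 vs. 1066 CPM (2.88, 2.37 to 3.52), H2-Ab1 at 227 vs. 623 CPM (2.75, 2.13 to 3.57) and Cd74 at 1325 vs. 2392 CPM (1.80, 1.62 to 2.02), and 8 of the 13 genes were past 1.5-fold. In the remaining members H2-Aa was at 1916 vs. 2558 CPM (1.34, 1.25 to 1.43) and 1 gene was past the fold. These values rest on 31 and 55 cells inside the subset, whose own definition does not use these genes, and 1553 of 8455 genes were at least 1.5-fold higher inside it.

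The resident list had a median of 0.15, with 4 of 24 genes higher (16.7%) and 1 lower (4.17%). Timd4, a receptor for phosphatidylserine on dying cells, had 31 UMIs in 14 DMSO members and 80 UMIs in 37 MVC members (26.9 vs. 65.5 CPM, ratio 2.44, 1.59 to 3.82). The lectin gene Mgl2 was at 169 vs. 315 CPM (1.86, 1.56 to 2.22), although its log2 ratio of 0.86 became 0.39 without members that carried markers of another list. Cd209b was at 39.9 vs. 75.4 CPM and Klf2 at 278 vs. 470 CPM. With members weighted equally, neither was past 1.5-fold (log2 ratios 0.54 and 0.52). Fcna (ficolin A) was lower, at 107 vs. 65.5 CPM. Neither Cd209b nor Fcna passed 1.5-fold without members that carried markers of another list (log2 ratios 0.57 and -0.45). Selenop was at 1640 vs. 2106 CPM and Cd163 at 455 vs. 424 CPM.

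Monocyte and monocyte-derived genes had a median of -0.30 (-0.00 in the other cells), with 1 of 14 higher and 5 lower (35.7%), and 5 of these 6 had over 50% of a library's UMIs in 3 cells. Fn1 had 457 UMIs in 19 DMSO and 213 UMIs in 13 MVC members (396 vs. 175 CPM), Thbs1 1086 UMIs in 19 and 367 UMIs in 12 members (942 vs. 301 CPM), and Chil3 48 UMIs in 7 members and 4 UMIs in 1 member. S100a4, seen in 54 and 71 members, was at 696 vs. 424 CPM (0.61, 0.55 to 0.68). Vcan was at 78.1 vs. 35.2 CPM. Without members that carried markers of another list, Chil3, S100a4 and Vcan were not past 1.5-fold (log2 ratios -0.31, -0.53 and -0.22). Fewer cells of a kind and less RNA per cell cannot be told apart in such sums.

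The lipid-associated programme, genes that macrophages raise through Trem2 when they take up lipid, had the lowest median, -0.39. Of 19 genes 0 were higher and 9 lower (47.4%), compared with 4 lower and a median of -0.23 in the other cells. The lower genes differed in how many cells held them. Plin2, which coats lipid droplets, was spread over 82 DMSO and 100 MVC members at 830 vs. 402 CPM (0.48, 0.43 to 0.54), and Ctsl, a lysosomal protease, over 74 and 93 members at 630 vs. 283 CPM (0.45, 0.39 to 0.51). Ctsd was at 803 vs. 437 CPM and Lgals3 (galectin-3) at 1090 vs. 684 CPM, but both were under 1.5-fold with the 3 top cells of each library left out and without members that carried markers of another list. Gpnmb came from few cells. It had 352 UMIs in 8 DMSO members, 89.2% of them in 3, and 24 UMIs in 9 MVC members. Of the 6 DMSO members with at least 2 Spp1 UMIs, 4 also had at least 2 of Gpnmb. Apoe was at 4626 vs. 3856 CPM and Cd36 at 1907 vs. 1485 CPM, and neither passed 1.5-fold.

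In the lysosome list 2 of 30 genes were higher (6.67%) and 3 lower (10.0%), beside 10.3% and 4.99% of all genes. The median was -0.11. Ctsb was at 3071 vs. 2333 CPM and Psap at 1650 vs. 1250 CPM.

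Of 17 iron and haem genes 3 were higher and 3 lower (17.6% each), with a median of -0.10 (-0.10 in the other cells). Both ferritin chains, which store iron, were lower: Fth1 at 14082 vs. 8720 CPM (0.62, 0.60 to 0.63) and Ftl1 at 6674 vs. 4301 CPM (0.64, 0.62 to 0.67). Fth1 had a per-cell median of 10041 CPM in DMSO and 5050 CPM in MVC. Neither chain passed 1.5-fold without members that carried markers of another list (log2 ratios -0.51 and -0.48). The exporter gene Slc40a1 (ferroportin) was higher, with 29 and 116 UMIs (ratio 3.78, 2.50 to 5.89). These UMIs came from 9 and 24 members, with 69.0% of the DMSO UMIs in 3 cells, while the other cells had 14.3 vs. 8.46 CPM, and the difference of the log2 ratios was 2.68 (2.06 to 3.30). The transferrin receptor gene Tfrc was at 95.4 vs. 227 CPM (2.38, 1.90 to 2.99), with 62.1% of its MVC UMIs in 3 cells, and its log2 ratio became 0.34 without the 3 top cells of each library. Slc48a1, which moves haem out of lysosomes, was at 79.8 vs. 37.7 CPM, and Hmox1, which breaks haem down, at 4803 vs. 3795 CPM (0.79, 0.76 to 0.82). With members weighted equally, the log2 ratio of Slc48a1 was -0.46 instead of -0.91 and not past 1.5-fold. Ftl1 shares 54.4% of its words with Ftl1-ps1.

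**Figure D5:**
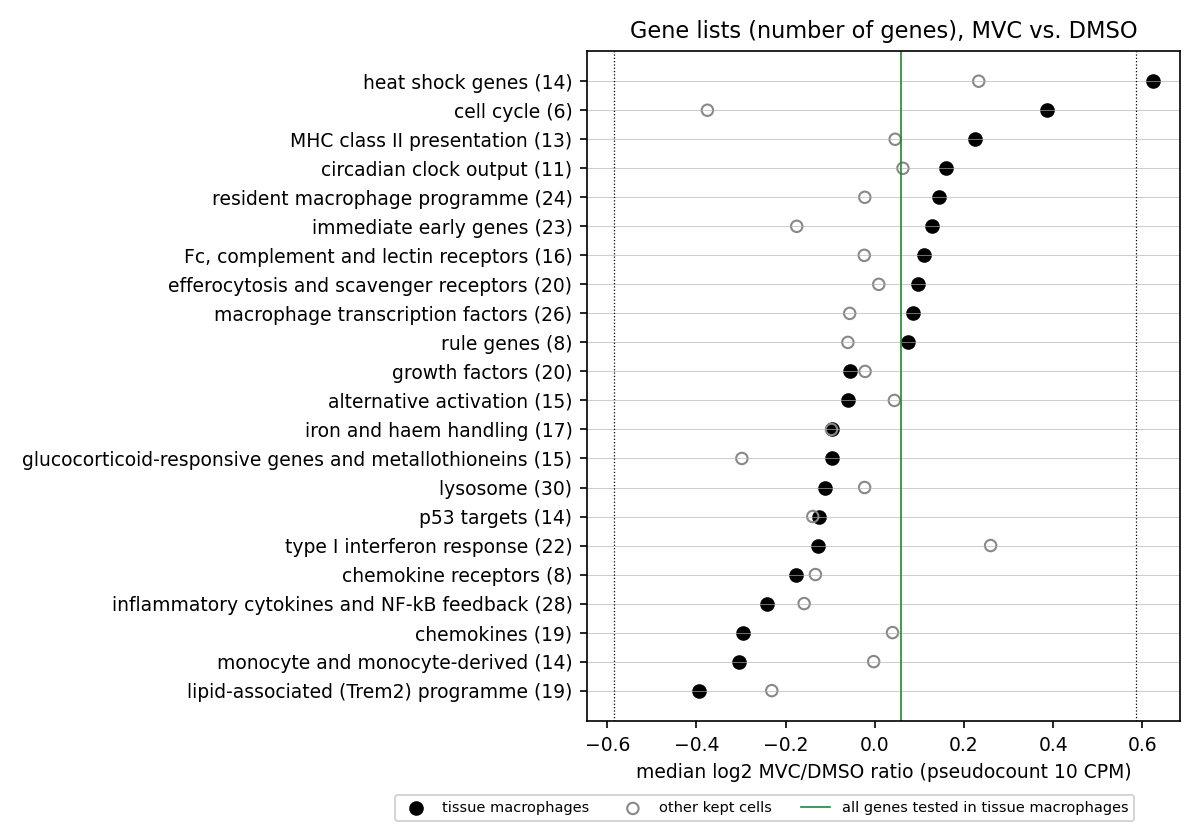
Median log2 ratio, MVC over DMSO, of each fixed list with at least 6 genes tested in tissue macrophages (filled) and in all other kept cells (open), with the number of genes in brackets, a line at the median of all tested genes in tissue macrophages and dotted lines at 1.5-fold. The heat shock list alone lies past 1.5-fold in tissue macrophages, and the lipid-associated list is lowest at -0.39.

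Type I interferon response genes were higher in 5 of 22 and lower in 5 (22.7% each) in the members, with a median of -0.13. The same genes had a median of 0.26 in the other cells. Rsad2 (viperin) was at 451 vs. 221 CPM (0.49, 0.42 to 0.57) in members and 34.3 vs. 62.7 CPM in the other cells, and the difference of the log2 ratios was -1.90 (-2.13 to -1.67). Isg15 was at 347 vs. 227 CPM (0.65, 0.56 to 0.76) and Ifi27l2a at 324 vs. 174 CPM (0.54, 0.45 to 0.64). Oasl2 was at 39.9 vs. 81.1 CPM (2.03, 1.42 to 2.95), while Ifih1, the RNA sensor MDA5, was at 940 vs. 972 CPM. Isg15, Ifi27l2a and Oasl2 were not past 1.5-fold without the 3 top cells of each library (log2 ratios -0.58, -0.44 and 0.47). Inside the resident-programme subset 12 of the 22 genes were lower and 2 higher, with a median of -0.67, beside 1168 lower and 1553 higher of all 8455 genes there. Rsad2 was at 488 vs. 103 CPM there. Rsad2 came from 32 and 33 members, with 41.3% and 37.8% of its UMIs in 3 cells.

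Among Fc, complement and lectin receptors 3 of 16 genes were higher (18.8%) and 0 lower, with a median of 0.11. Clec12a, an inhibitory lectin, was at 60.7 vs. 129 CPM (2.13, 1.60 to 2.87) in 33 and 64 members. Fcgr4 had 10 and 75 UMIs, but 96.0% of the MVC UMIs lay in 3 cells and the log2 ratio turned from 1.94 to -0.21 without the 3 top cells. Fcer1g, the shared signalling chain of Fc receptors, was at 819 vs. 771 CPM. Of 20 efferocytosis and scavenger receptors 2 were higher and 1 lower. Axl, a receptor for Gas6-coated dying cells, was at 32.1 vs. 74.6 CPM (ratio 2.32). Of 15 genes of alternative activation 1 was higher (6.67%) and 2 were lower (13.3%), and Retnla was at 1177 vs. 857 CPM.

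Among growth factors 3 of 20 genes were higher and 4 lower. Bmp2 was at 47.7 vs. 114 CPM (2.39, 1.73 to 3.32), Pdgfc at 67.7 vs. 120 CPM (1.78, 1.34 to 2.37) and Il16 at 19.9 vs. 64.7 CPM. Nrg1 (neuregulin) was among the lower genes, with 421 UMIs in 4 DMSO members and 14 UMIs in 1 MVC member. In DMSO 99.8% of these UMIs lay in 3 cells.

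The Cdk inhibitor Cdkn1a (p21) was lower, at 480 vs. 283 CPM (0.59, 0.51 to 0.68). The other cells had 607 vs. 355 CPM, and the difference of the log2 ratios was 0.01 (-0.19 to 0.21). After thinning 46.8% of DMSO and 34.1% of MVC members had a Cdkn1a UMI (81.1% and 59.7% without thinning). Endothelial cells had it in 78.9% and 57.5%, so no cell type without the gene was at hand for a background. Among 14 p53 targets 2 were higher and 2 lower (14.3% each), beside 10.3% and 4.99% of all genes. Klf9, a glucocorticoid-responsive gene, was at 237 vs. 81.9 CPM (0.35, 0.27 to 0.44) and Tsc22d3 at 225 vs. 136 CPM (not past 1.5-fold without the 3 top cells of each library). The metallothionein genes Mt1 and Mt2 were at 1511 vs. 901 and 326 vs. 214 CPM. With members weighted equally, Mt1 was not past 1.5-fold (log2 ratio -0.57). Of this list 5 of 15 genes were lower and 3 higher. Of 11 genes of the circadian clock 3 were higher (27.3%), among them Per1 at 18.2 vs. 42.6 CPM (2.34, 1.38 to 4.09). Macrophage transcription factors were at like levels, with 1 of 26 higher and 1 lower (3.85% each). Zeb2, a repressor of the zinc finger family, was at 3591 vs. 3458 CPM and Runx1 at 1057 vs. 1156 CPM. Of 6 cell cycle genes tested 3 were higher, at few UMIs. Mki67 had 28 and 26 UMIs, in 17 and 8 members.

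The log2 ratios of members were set against those of all remaining kept cells, as a difference. It was 2.60 (2.22 to 2.99) for Ccl8, 2.36 (1.93 to 2.80) for Hpgd, 2.20 (1.65 to 2.75) for Cx3cr1 and 2.01 (1.61 to 2.41) for Rnf180. It was -2.45 (-3.18 to -1.73) for Grik3, whose share of cells with a UMI was also lower in MVC endothelial cells and fibro-adipogenic progenitors, -1.58 (-1.75 to -1.41) for Il1b, -1.14 (-1.37 to -0.91) for Mdm2, -1.07 (-1.34 to -0.79) for Ccl3 and -1.05 (-1.26 to -0.84) for Ccl6. For Hspa1b it was 0.65 (0.59 to 0.71) and for Bag3 0.92 (0.73 to 1.10). Cd14, Tsc22d3, Cdkn1a and Ccl5 had intervals that included 0. The other kept cells are a mixture of types whose shares differed between the libraries, so this difference holds their make-up as well.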

How the data were processed

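Single-cell RNA-seq of live mononuclear cells from limb muscle was analysed, with 1 library from DMSO-treated and 1 from MVC-treated mice, grouped by the treatment in the labels. The deposited values were raw UMI counts, without normalisation, for genes by barcodes. The submitters' processing notes name Cell Ranger 7.0.0, Seurat 5.0.1 and mm10. The handling of intronic reads is not given in the sources used here. The cell filter asked for 500 genes or more and no more than 10% mitochondrial UMIs. Members were chosen by the 8-gene rule, and UMIs were summed over members of a library and scaled to 1000000 (CPM). For log2 ratios, 10 CPM was added to both levels and genes needed 20 UMIs or more. The added value understates the change of low genes. Levels carried exact Poisson, ratios exact conditional, shares Clopper-Pearson and differences of shares Newcombe intervals. Differences of log2 ratios carried an interval from the 4 counts. The intervals cover counting error only, and no test was run, since each group held 1 library. Cells were thinned to 2000 UMIs for shares of cells with a UMI. Doublets were scored against simulated ones and called at 0.8% per 1000 cells, and they were kept in the reported values. The ratio interval and the fold calls were tried on simulated counts that had no spread among cells. The other intervals were not tested in this way. Free RNA was not corrected. Lists held 23 sets of genes. The members and lists were chosen with earlier results of these data known.

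Named genes were the rule genes, the 15 genes highest in members over other cells with a UMI in at least 50% of members, the 12 highest and 12 lowest ratios among genes with at least 50 UMIs and at most 50% of either library's UMIs in 3 cells (without mitochondrial, haemoglobin, immunoglobulin, T cell receptor and sex-marker genes and Gm or Rik models), a fixed set that held Ccl3, Ccl4, Ccl5, Ccl8, Ccl2, Ccl7, Cdkn1a and Cxcl2, and in each list up to 6 genes past 1.5-fold plus the 3 with most UMIs. Some genes under this rule are not reported here. Genes named beyond this rule were chosen after their values were seen. Promoters came from RefSeq (GRCm38.p6) and positions from GENCODE M21 of the same build. Alternatives covered the choice of members, doublets, cell filters, weights, pseudocounts, minimum UMIs and the top cells. Python 3.11.15, numpy 2.4.6, scipy 1.17.1, pandas 2.3.3 and scikit-learn 1.9.0 were used.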

Additional observations from a re-analysis of the deposited data

Results flagged for a closer look

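Among the 168 genes that met the naming rule, 13 moved in opposite directions. They were past 1.5-fold up or down in MVC members, while the other kept cells moved at least 1.2-fold the opposite way. Values are log2 ratios of MVC over DMSO, with 1 library per group. Genes whose other cells moved the opposite way by less, such as Ccl8 and Hpgd, are not counted. The count is of named genes only, and a share over all genes tested is not given. The difference was not tested. Higher in members were Slc40a1 at 1.58 (-0.40 in the other cells), Pde3b at 1.53 (-0.56), Txnip at 0.93 (-0.58), Klf2 at 0.74 (-0.26) and Stmn1 at 0.70 (-0.38). Lower in members were Cxcl3 at -1.37 (0.31), Fn1 at -1.14 (0.31), Rsad2 at -0.996 (0.72), Vcan at -0.96 (0.35), Il1b at -0.91 (0.54), Ifi27l2a at -0.86 (0.34), S100a4 at -0.70 (0.46) and Isg15 at -0.59 (0.27). The other cells are a mixture whose make-up differed between the libraries. Without the members that carried markers of another list, the log2 ratios of Cxcl3, Vcan, Il1b, S100a4 and Stmn1 were -0.13, -0.22, -0.30, -0.53 and 0.21.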

How the results depend on the processing

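The difference in the share of members and in the share of the resident-programme subset kept its direction under each alternative run. The number of genes at least 1.5-fold higher in MVC was 1473 with a pseudocount of 1 CPM, 168 with 50 CPM, 289 among genes with at least 100 UMIs, and 499 without genes that had over 50% of a library's UMIs in 3 cells, an alternative chosen after seeing the data. The number of genes at least 1.5-fold lower in MVC was 738, 123, 203 and 257 under the same settings. Without the 3 top cells of each library, the log2 ratios of Fcgr4, Atp6v0d2, Cd80, Ccr7 and Pdcd1lg2 turned to -0.21, 0.50, 0.35, 0 and 0. Without members that carried markers of another list, Atp6v0d2, Ccr7 and Pdcd1lg2 turned to 0.18, 0.29 and 1.25. With at least 5 rule genes, Stmn1, Ccr7 and Pdcd1lg2 turned to -0.032, 0.24 and 1.10. The cause was not tested. Of 107 named genes past 1.5-fold, 56 stayed past it in the same direction under every alternative, while 29 ended without members that carried markers of another list, 28 with a pseudocount of 50 CPM, 24 with members weighted equally and 24 without the top cells. No paired analysis was possible because each group held 1 library. The 229 members limit what can be seen of low genes and rare cells, and variation among mice was not measured.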
